A study of Mus musculus with 2 samples.

Results

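The genes described here are 10 that license and fire replication origins, among them the drug target of the study. They were taken by symbol from the 32285 features of each library: Cdc7 and Dbf4, the 6 subunits Mcm2 to Mcm7, Mcm10 and Cdc45. All 10 were found. They were described in 2 single-cell libraries of J558 allografts, 1 of vehicle-treated and 1 of TAK-931-treated mice. Female BALB/c mice, listed at 4 weeks of age and carrying subcutaneous J558 tumours were dosed by mouth every day for 6 days, either with 60 mg/kg of TAK-931 or with the vehicle, 0.5% methylcellulose. J558 is a mouse plasma cell myeloma line of BALB/c origin, so host and tumour share a strain and the host keeps its immune cells. TAK-931 is an inhibitor selective for the kinase CDC7. Each library came from a single allograft, picked as the representative of its group. With 1 library a group, animal, library and treatment cannot be told apart, no difference between treatments was tested, and every interval below covers counting error only.

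CDC7 is a serine/threonine kinase that acts only when bound to its activating subunit DBF4. Before S phase, the ring of MCM2 to MCM7 is loaded on DNA at origins as an inactive double hexamer. DBF4-dependent CDC7 phosphorylates the tails of MCM2, MCM4 and MCM6, which lets CDC45 and the GINS complex join the ring and form the active helicase, and MCM10 acts at the last step of its activation. The transcripts of these genes are made mainly in proliferating cells, under E2F transcription factors. The question of the comparison is how the target of the drug and the complex it acts on are distributed over the cells of the tumour microenvironment (TME), and how their mRNA levels compare between the treatments. mRNA says nothing of the kinase activity or of the phosphorylated forms, which were not measured in these libraries.

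The kinase genes are both on chromosome 5 of GRCm38: Cdc7 (ENSMUSG00000029283) at chr5:106964322-106984432 on the plus strand and Dbf4 (ENSMUSG00000002297) at chr5:8396973-8422716 on the minus strand. Of the genes of the ring, Mcm2 (ENSMUSG00000002870) lies at chr6:88883474-88898780, Mcm3 (ENSMUSG00000041859) at chr1:20802968-20820312, Mcm4 (ENSMUSG00000022673) at chr16:15623897-15637400, Mcm6 (ENSMUSG00000026355) at chr1:128331590-128359664 and Mcm7 (ENSMUSG00000029730) at chr5:138164583-138172422, all on the minus strand. Mcm5 (ENSMUSG00000005410) is on the plus strand at chr8:75109569-75128439. Mcm10 (ENSMUSG00000026669) at chr2:4989714-5012791 and Cdc45 (ENSMUSG00000000028) at chr16:18780447-18811987 are on the minus strand. The positions are those of GENCODE vM21.

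Sequence before the start was looked at because the 10 genes moved largely together between cells, with exceptions described below. RefSeq windows for GRCm38.p6 were found for 9 of the 10 genes, 11 windows in all, and Mcm4 had no entry. The 250 bases before the start were searched on both strands for 4 words that E2F factors are known to bind, TTTCCCGC, TTTGGCGC, TTTCGCGC and TTTGCCGC, and for CCAAT, the word of the factor NF-Y. Any of the 4 E2F words was present in 1.86% of 32851 windows of all genes, and in 3 of the 11 windows, 1 each of Mcm5, Mcm6 and Mcm7. CCAAT was present in 33.8% of all windows and in 8 of the 11 windows, of 7 of the 9 genes, with none before Cdc7 or Dbf4. The words can overlap each other on opposite strands, as in Mcm5 and Mcm6. The windows printed are those of Mcm5 and Mcm6, which hold E2F words, Mcm10, which holds only CCAAT, and Dbf4, which holds neither. Each runs 5′ to 3′ on the gene's strand and ends at the base before the RefSeq start, with E2F words and CCAAT (or its complement ATTGG) in capitals. The windows are Mcm5 at chr8:75109329-75109508 (plus), Mcm6 at chr1:128359706-128359885 (minus), Mcm10 at chr2:5012792-5012971 (minus) and Dbf4 at chr5:8422717-8422836 (minus). A match is a description of the letters and not a measured site.
Mcm5: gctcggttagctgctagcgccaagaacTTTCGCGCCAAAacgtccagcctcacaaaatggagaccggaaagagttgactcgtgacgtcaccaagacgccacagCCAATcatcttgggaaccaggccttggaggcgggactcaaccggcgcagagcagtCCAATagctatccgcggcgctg
Mcm6: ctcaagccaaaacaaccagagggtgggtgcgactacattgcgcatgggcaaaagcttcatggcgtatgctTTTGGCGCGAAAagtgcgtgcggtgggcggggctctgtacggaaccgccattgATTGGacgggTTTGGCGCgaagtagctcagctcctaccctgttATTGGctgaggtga
Mcm10: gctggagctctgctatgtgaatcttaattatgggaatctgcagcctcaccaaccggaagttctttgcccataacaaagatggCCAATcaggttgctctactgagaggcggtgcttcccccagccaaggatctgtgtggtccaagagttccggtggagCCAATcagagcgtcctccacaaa
Dbf4: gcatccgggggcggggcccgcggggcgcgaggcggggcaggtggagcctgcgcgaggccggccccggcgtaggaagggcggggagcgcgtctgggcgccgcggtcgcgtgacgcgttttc

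The vehicle library held 4565 barcodes with 144767193 UMIs (unique molecular identifiers, which count single captured transcripts) and the TAK-931 library 6558 barcodes with 77369283 UMIs. After filters on genes detected (over 2000) and on the mitochondrial share (under 15%), 3441 vehicle and 3488 TAK-931 cells remained, with medians of 40504 and 15097 UMIs. The libraries shared 8 barcode sequences, 1 of them among kept cells. Each kept cell was gated by 8 lists of marker genes as tumour-like, T-like, NK-like, myeloid-like (monocyte/macrophage and dendritic lists) or stromal-like (endothelial, fibroblast and mural lists). Gated cells numbered 3012 vehicle and 102 TAK-931 cells in the tumour gate, 14 and 666 in the T gate, 8 and 77 in the NK gate, 247 and 2155 in the myeloid gate, and 130 and 293 in the stromal gate. A level here is the UMIs of a gene summed over the cells of a gate and divided by all UMIs of those cells, per 1000000 UMIs (CPM), with an exact Poisson 95% interval. Check genes that no gate used were highest in the gate of their own type for the tumour, NK, myeloid and stromal gates of the TAK-931 library and for the tumour, myeloid and stromal gates of the vehicle library. The cytotoxic genes Prf1, Nkg7 and Ccl5, which T cells also use, summed to 13656 CPM in NK-like and 5620 CPM in T-like TAK-931 cells, but to 4271 CPM in the 8 NK-like and 4788 CPM in the 14 T-like vehicle cells. The 26 and 185 cells in which another lineage came near the leading one were left out as mixed. J558 immunoglobulin transcripts, which no gate used, stood in the other gates at 0.212% to 1.39% of their level in the tumour gate of the same library. At these shares, free RNA from tumour cells would give at most 5.70% of the Mcm2 to Mcm7 UMIs of any other gate. The estimate covers whole gates and RNA from tumour cells only. The counts are from 3′ ends and were not scaled by transcript length, so levels are compared between cells for 1 gene and not between genes.

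The helicase genes were highest in T-like, NK-like and tumour-like cells and lowest in myeloid-like and stromal-like cells, in both libraries. In the TAK-931 library the sum of Mcm2 to Mcm7 was 673 CPM in the T gate (interval 659 to 688), 610 in the NK gate (564 to 658) and 553 in the tumour gate (536 to 570). It was 98.7 CPM in the stromal gate (91.4 to 106) and 86.6 in the myeloid gate (83.5 to 89.7). The intervals of the T and NK gates were apart by a small margin, as were those of the stromal and myeloid gates, and those of the NK and tumour gates overlapped. In the vehicle library the order was T (713 CPM, 610 to 830), NK (526, 396 to 684), tumour (498, 494 to 502), myeloid (145, 132 to 159) and stromal (108, 96.8 to 121). There the NK interval held the tumour level, and the T and NK gates rested on only 14 and 8 cells. Each of the 10 genes was lower in the myeloid and in the stromal gate than in the tumour gate of the TAK-931 library, with intervals that did not meet, as were 36.4% of 14301 genes in the myeloid and 28% of 13974 genes in the stromal gate.

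**Figure D1:**
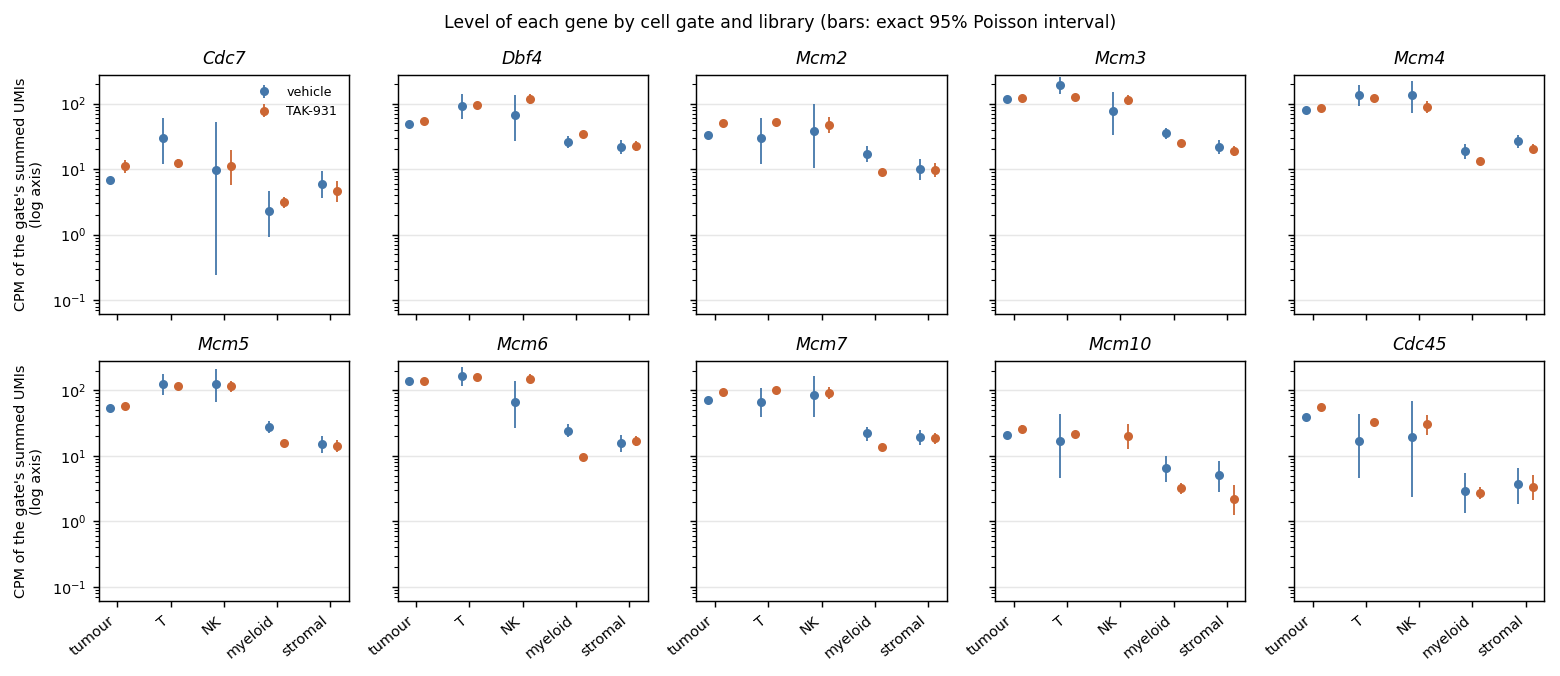
Level of each of the 10 genes (CPM of the gate's summed UMIs, log axis) in the 5 gates of the vehicle (blue) and TAK-931 (orange) library; bars are exact 95% Poisson intervals, and a level of 0 (Mcm10 in the 8 vehicle NK-like cells) is not drawn. The 6 ring subunits, Mcm10 and Cdc45 sit lower in the myeloid and stromal gates than in the tumour gate, and so does Dbf4, which in TAK-931 myeloid-like cells lies at 34.9 against 54.7 CPM in tumour-like ones.

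Dbf4, the activating subunit of the kinase, was in the TAK-931 library the gene with the highest level in myeloid-like relative to tumour-like cells. It stood at 49.4 CPM (48.2 to 50.6) in vehicle and 54.7 CPM (49.4 to 60.3) in TAK-931 tumour-like cells. In the TAK-931 library it was higher in T-like (95.03 CPM, 89.7 to 101) and NK-like cells (118 CPM, 98.4 to 140) than in tumour-like cells. Myeloid-like cells had 26.2 CPM (20.8 to 32.6) in the vehicle and 34.9 CPM (33.0 to 36.9) in the TAK-931 library. Stromal-like cells had 22.1 CPM and 22.7 CPM, with overlapping intervals. The helicase genes were further below their tumour level in TAK-931 myeloid-like cells: Mcm2 was at 8.97 against 50.1 CPM, Mcm6 at 9.73 against 141 CPM and Cdc45 at 2.75 against 56.2 CPM. In the vehicle library Mcm2 (17.2 against 33.8 CPM) and Mcm5 (27.8 against 54.1 CPM) stood to their tumour level much as Dbf4 did. Mcm6 (24.3 against 141 CPM) and Cdc45 (2.91 against 39.8 CPM) were further below theirs there. Of the Dbf4 UMIs of the TAK-931 library, the myeloid gate held 36.4%, with 51.5% of all UMIs, and the T gate 34.8%, with 18.1% of all UMIs.

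Cdc7, the kinase itself, was captured at a low level in every gate. It gave 903 UMIs in 3012 vehicle tumour-like cells (6.77 CPM, 6.34 to 7.23) and 80 UMIs in 102 TAK-931 tumour-like cells (11.04 CPM, 8.76 to 13.7). In the TAK-931 library it reached 12.3 CPM in T-like (10.4 to 14.4) and 11.1 CPM in NK-like cells (5.71 to 19.3), whose intervals held the tumour level. It was 3.14 CPM (2.59 to 3.78) in myeloid-like and 4.69 CPM (3.21 to 6.62) in stromal-like cells. In the vehicle library it was 2.27 CPM (0.911 to 4.67) in myeloid-like cells. Vehicle stromal-like cells had 6.03 CPM (3.57 to 9.53), an interval that held the vehicle tumour level. Vehicle T-like cells had 29.6 CPM (11.9 to 60.9) on 7 UMIs, and NK-like cells 1 UMI. When every cell was thinned to 4000 UMIs to set depth equal, a Cdc7 UMI was present in 2.36% of vehicle tumour-like cells (exact Clopper-Pearson interval 1.85 to 2.96), against 23.0% without thinning. The thinned share was 3.92% (1.08 to 9.74) in TAK-931 tumour-like, 3.604% (2.32 to 5.31) in T-like and 1.16% (0.752 to 1.71) in myeloid-like cells, against 37.3%, 17.1% and 4.64% without thinning. No gate is known to lack Cdc7, and the non-dividing myeloid-like cells of the TAK-931 library, as defined further on, had 0.732% (0.269 to 1.59), an interval that holds the share of the whole myeloid gate.

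Cdc45, which joins the ring with GINS, spanned the widest range between the gates of the TAK-931 library, measured as a fold of its lowest level. Cdc45 was 56.2 CPM (50.9 to 61.9) in TAK-931 tumour-like cells, 32.7 CPM in T-like (29.6 to 36.0) and 30.4 CPM in NK-like cells (20.9 to 42.7). It was 3.37 CPM (2.13 to 5.05) in stromal-like and 2.75 CPM (2.23 to 3.35) in myeloid-like cells. Mcm10, the late activator, was 25.5 CPM (22.0 to 29.5) in tumour-like and 21.5 CPM (19.0 to 24.3) in T-like cells, with overlapping intervals, and 3.22 CPM in myeloid-like and 2.20 CPM in stromal-like cells. Tumour-like cells were thus ahead of T-like cells for Cdc45 and behind them for Mcm5 (57.4 against 115 CPM), Mcm4 (86.7 against 120 CPM) and Mcm6 (141 against 159 CPM), while the intervals of Mcm2, Mcm3 and Mcm7 overlapped between the gates.

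The cells holding the helicase transcripts differed between the libraries. In the vehicle library the tumour gate held 97.9% of the Mcm2 to Mcm7 UMIs, with 87.5% of the cells and 94.5% of all UMIs. In the TAK-931 library T-like cells held 44.95% of them, with 19.1% of the cells and 18.1% of all UMIs. Tumour-like cells held 21.3% from 2.92% of the cells, and myeloid-like cells 16.4% from 61.8% of the cells. Mixed cells held a further 10.1%, and stromal-like and NK-like cells 3.59% and 3.53%. Among its single genes, the tumour share was highest for Cdc45 (37.4%) and lowest for Dbf4 (11.6%) and Mcm5 (14.05%). The T share was highest for Mcm6 (49.1%) and Mcm5 (48.9%).

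**Figure D2:**
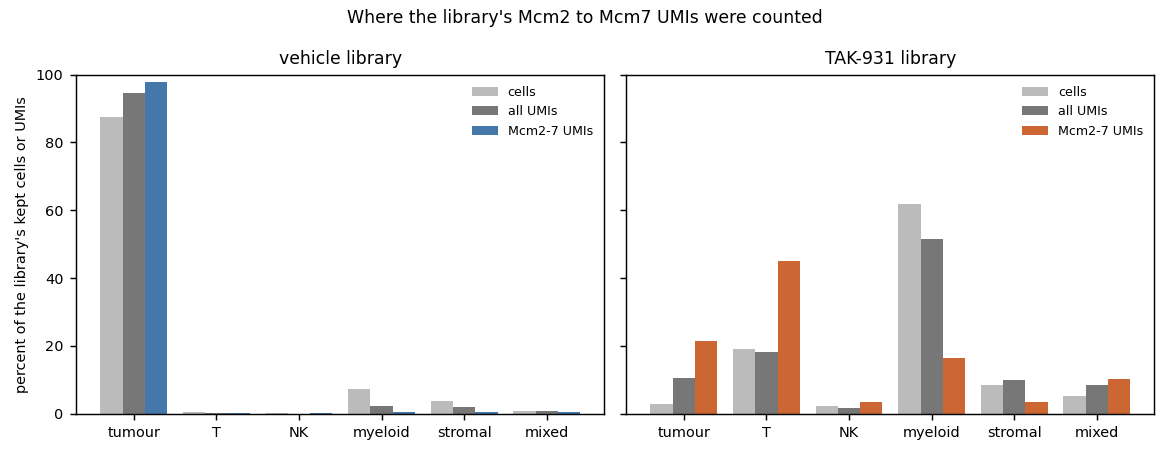
Share of the library's kept cells (light grey), of all UMIs (dark grey) and of Mcm2 to Mcm7 UMIs (coloured) that lay in each gate, in percent, for the vehicle (left) and TAK-931 (right) library. In the TAK-931 library T-like cells held 44.95% of the Mcm2 to Mcm7 UMIs and tumour-like cells 21.3%, against 97.9% in tumour-like cells of the vehicle library.

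The T-like cells of the TAK-931 library were split by their Cd8a, Cd8b1 and Cd4 UMIs, a split chosen after the data were seen. The 495 cells with a Cd8a or Cd8b1 UMI and no Cd4 UMI had Mcm2 to Mcm7 at 716 CPM (699 to 733), and 63.0% of them were dividing by the definition below. The 105 cells with a Cd4 UMI only had 514 CPM (481 to 549) and 42.9% dividing. The 33 cells with both had 698 CPM (645 to 755) and 69.7% dividing, and the 33 with neither 257 CPM (207 to 315) and 24.2%. Among dividing cells alone the levels of the Cd8 and Cd4 sets were nearer, 853 CPM (832 to 875) and 766 CPM (713 to 822). Dbf4 was 105 CPM in dividing cells of the Cd8 set and 106 CPM in those of the Cd4 set.

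Dividing cells were then set against non-dividing cells of the same gate and library. A cell thinned to 4000 UMIs was called dividing with at least 4 UMIs of a list of 20 G2/M genes or of a list of 20 S phase genes, and non-dividing with at most 1 UMI of both. Neither list holds any of the 10 genes, but both are cell cycle genes of the same cells, so a higher level in dividing cells describes the genes and was not tested. By this definition 63.0% of vehicle tumour-like cells (61.3 to 64.7), 58.3% of TAK-931 T-like cells (54.4 to 62.0), 54.5% of TAK-931 NK-like cells (42.8 to 65.9), 18.0% of TAK-931 myeloid-like cells (16.4 to 19.6) and 16.7% of TAK-931 stromal-like cells (12.6 to 21.5) were dividing. Here dividing is a name for these calls, and cycling itself was not measured. In the TAK-931 myeloid gate 322 of the 387 cells called dividing were called by the S list alone, and only 3.02% of the gate was called by the G2/M list. The ring was at 162 CPM in these 322 cells and at 590 CPM in TAK-931 T-like cells called by the S list alone. The calls read free RNA as well, and its part in them was not tested.

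In vehicle tumour-like cells, 1898 dividing against 339 non-dividing, Mcm2 to Mcm7 summed to 588 and 231 CPM, a log2 ratio of 1.35 (1.29 to 1.40). All 10 genes were higher in dividing cells and 9 of 10 by at least 2-fold, with a median log2 ratio of 1.96, where 9.96% of 14004 genes with at least 10 UMIs lay 2-fold higher and the median of all genes was 0.11. Mcm10 had 2707 UMIs in dividing and 8 in non-dividing cells, 29.2 against 0.684 CPM. Cdc45 was 54.8 against 2.74 CPM. Among the ring subunits, Mcm5 (70.3 against 10.9 CPM, log2 2.68, 2.43 to 2.95) and Mcm7 (90.3 against 21.7 CPM, log2 2.06, 1.88 to 2.24) stood apart from Mcm2, Mcm3, Mcm4 and Mcm6, whose log2 ratios were 0.93 to 1.24. Mcm4, at 90.1 against 47.3 CPM, was the one gene under 2-fold, and Mcm6 was 160 CPM in dividing and 75.3 CPM in non-dividing tumour-like cells. Dividing tumour-like cells had a median of 48231 UMIs and non-dividing ones 34349.

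In T-like cells of the TAK-931 library the ratio of the ring was larger than in vehicle tumour-like cells, a comparison across libraries, and the ratio of Mcm6 was the smallest of the 6 subunits. In the TAK-931 T gate, 388 dividing against 76 non-dividing cells, Mcm2 to Mcm7 summed to 835 and 155 CPM, a log2 ratio of 2.43 (2.19 to 2.68), and 9 of 10 genes were at least 2-fold higher in dividing cells, against 15.5% of all genes. Mcm5 was 147 against 7.63 CPM, Mcm3 163 against 16.3 CPM and Mcm7 127 against 13.1 CPM. Mcm6 was 185 CPM in dividing and 82.8 CPM in non-dividing T-like cells (log2 1.16, 0.83 to 1.51). Mcm6 thereby made up 53.5% (44.97 to 61.9) of the Mcm2 to Mcm7 UMIs of non-dividing T-like cells, against 22.2% (21.3 to 23.1) in dividing ones. The non-dividing value rests on 76 Mcm6 UMIs, found in 52.6% of those cells without thinning. The gene under 2-fold was Dbf4, at 106 against 58.8 CPM (log2 0.85, 0.45 to 1.27). Mcm10 had 267 UMIs in dividing and 0 in non-dividing cells, 8.86-fold lower in non-dividing cells when a floor of 3 counts over the group is taken. The exact interval of the log2 ratio began at 2.84, a smaller fold than this floor gives. Dividing T-like cells had a median of 20248 UMIs and non-dividing ones 11052.

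In myeloid-like cells the ring differed by over 2-fold in both libraries, and Dbf4 by less than 2-fold in both. In the TAK-931 library, 387 dividing against 820 non-dividing cells, the sum of Mcm2 to Mcm7 was 188 and 46.8 CPM, a log2 ratio of 2.01 (1.87 to 2.15), which was 1.36 with cells thinned to 2000 UMIs, and 8 of 10 genes were at least 2-fold higher, against 4.82% of all genes. Mcm6 had the largest ratio in the ring there, at 24.3 against 3.23 CPM, and made up 6.91% (5.05 to 9.20) of the ring UMIs of non-dividing cells, against 12.9% (11.2 to 14.9) in dividing ones. Of the 6 subunits, Mcm6 thus had the smallest ratio in T-like cells and the largest in myeloid-like cells, where it was also the largest in the vehicle library (71.3 against 4.60 CPM). The kinase genes were the 2 below 2-fold, Dbf4 at 52.9 against 28.0 CPM (log2 0.92, 0.71 to 1.13) and Cdc7 at 3.38 against 2.86 CPM (log2 0.24, -0.56 to 1.02). In the vehicle library, 50 dividing against 92 non-dividing myeloid-like cells, the ring was 367 and 49.7 CPM (log2 2.88, 2.46 to 3.33), and 7 of the 8 genes with at least 10 UMIs were 2-fold higher, against 9.09% of all genes. Of these, Mcm10 reached 10 UMIs through dividing cells alone (17 and 0 UMIs). The gene below 2-fold was again Dbf4, at 33.0 against 22.1 CPM.

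In stromal-like cells the ring was also higher in dividing cells. The ring was 296 against 51.7 CPM in 23 dividing and 56 non-dividing vehicle cells (log2 2.52, 2.10 to 2.95, and 1.79 with cells thinned to 2000 UMIs). There 8 of 9 genes were 2-fold higher, against 7.33% of all genes, and Mcm10 reached 10 UMIs through dividing cells (11 and 1 UMIs). The ring was 178 against 39.1 CPM in 49 and 152 TAK-931 cells (log2 2.19, 1.87 to 2.51), and 8 of 9 genes were 2-fold higher, against 7.56% of all genes. With another random draw of the 4000 UMIs this last value was 2.83, so that it is known less well than its interval says. Mcm5 had the largest ratio in the ring in both, 53.4 against 4.56 CPM and 32.0 against 2.17 CPM. Dbf4 was 19.1 against 24.3 CPM in the vehicle library, the only lower value among the 6 contrasts. This rested on 10 and 32 UMIs, and the interval of its log2 ratio (-0.35) was -1.54 to 0.71. In the TAK-931 library Dbf4 was 38.0 against 16.8 CPM (log2 1.18, 0.60 to 1.76).

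**Figure D3:**
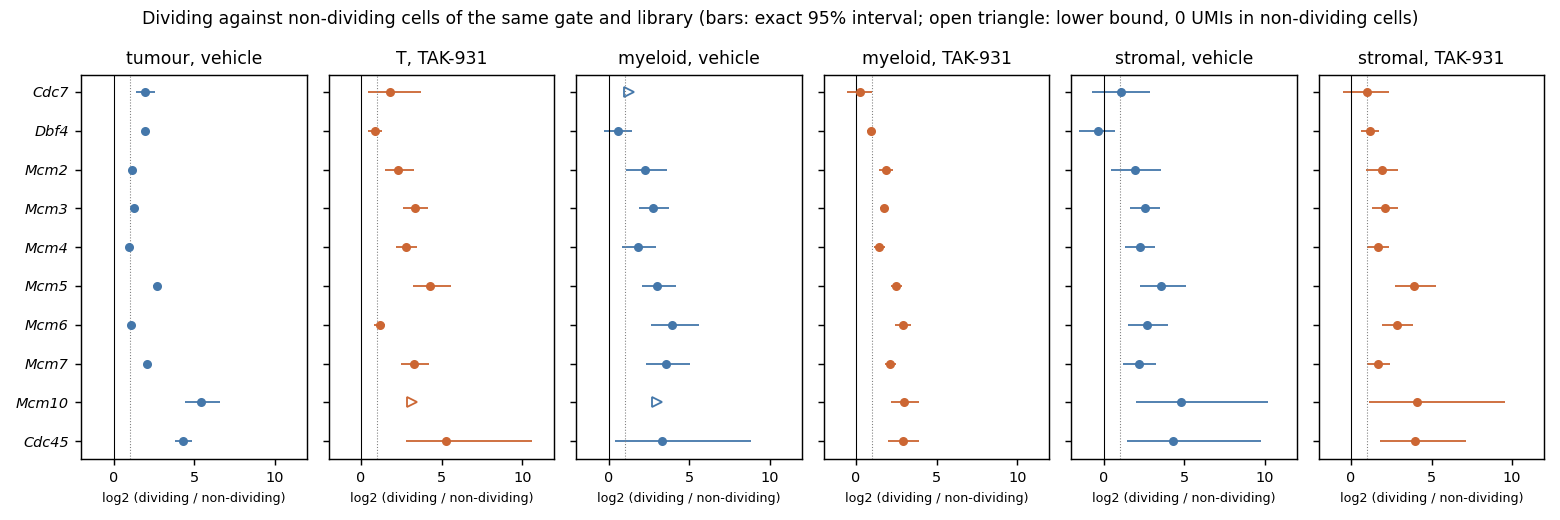
log2 ratio of dividing to non-dividing cells for each of the 10 genes in the 6 gate and library pairs with at least 20 cells of both states; bars are exact 95% intervals, the dotted line marks 2-fold and open triangles are lower bounds where non-dividing cells had 0 UMIs. Mcm10 and Cdc45 lie furthest right in the tumour panel, and Dbf4 lies between -0.35 and 1.18 outside the tumour gate.

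Genes that share a start region with 1 of the 10 offered a comparison within the same stretch of DNA, chosen by position after the data were seen. Of the 10 genes, 4 start head to head with a protein-coding gene on the other strand within 1000 bases: Cdc45 and Ufd1, Mcm7 and Ap4m1, Mcm4 and Prkdc, and Dbf4 and Slc25a40, with 208, 420, 466 and 134 bases between their annotated starts. In the T gate of the TAK-931 library, Cdc45 had a log2 ratio of dividing to non-dividing of 5.28 (2.80 to 10.6), from 391 and 1 UMIs, and Ufd1, which acts in protein degradation with VCP, had -0.03 (-0.52 to 0.50). Mcm7 had 3.28 there and Ap4m1, an adaptor subunit of vesicle transport, -0.30 (-1.20 to 0.76). Mcm4 had 2.77 and Prkdc, the catalytic subunit of a DNA repair kinase, -0.15 (-0.92 to 0.73). In vehicle tumour-like cells Ufd1 was 83.8 against 62.7 CPM (log2 0.42, 0.31 to 0.53), Ap4m1 0.21 (-0.04 to 0.47) and Prkdc -0.03 (-0.23 to 0.17) on the log2 scale. Slc25a40, a mitochondrial carrier, had 0.93 (0.36 to 1.56) in tumour-like cells, where Dbf4 had 1.97. In these gates and in the TAK-931 myeloid gate each partner lay below its replication gene. Slc25a40 was above Dbf4 in the vehicle myeloid gate (1.84 and 0.58), on 5 and 2 UMIs, and in the vehicle stromal gate (-0.13 and -0.35), on 4 and 11 UMIs.

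**Figure D4:**
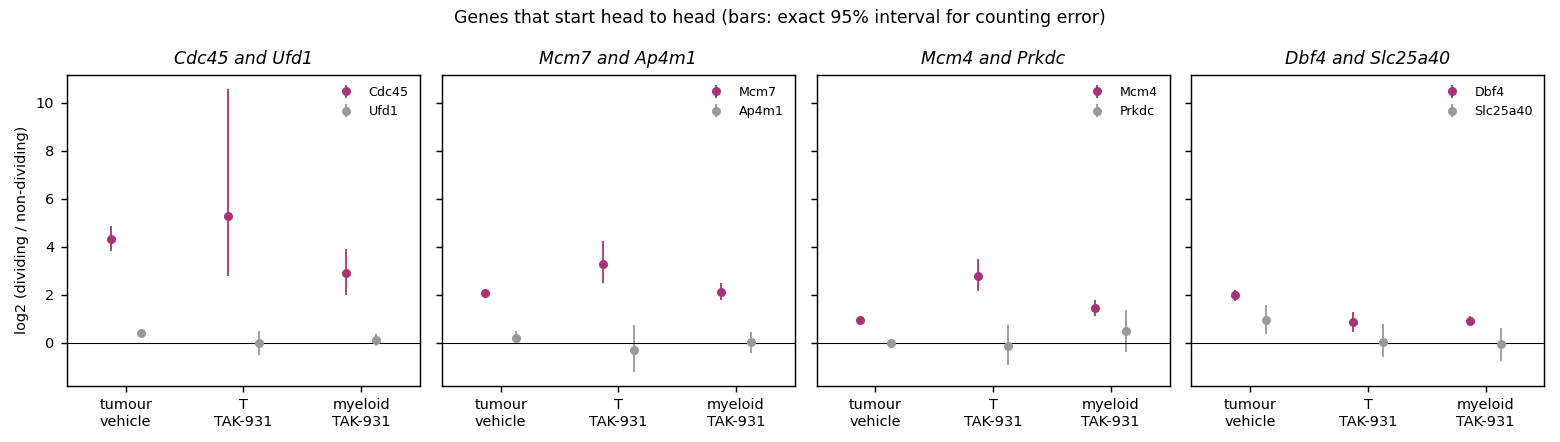
log2 ratio of dividing to non-dividing cells for 4 of the 10 genes (purple) and the genes that start head to head with them (grey), in vehicle tumour-like, TAK-931 T-like and TAK-931 myeloid-like cells; bars are exact 95% intervals for counting error. Ufd1, Ap4m1 and Prkdc lie between -0.30 and 0.49 while Cdc45, Mcm7 and Mcm4 lie between 0.93 and 5.28, the last a value that rests on 1 UMI in non-dividing cells.

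Within dividing cells, those called by the G2/M list were compared with those called by the S list alone. In vehicle tumour-like cells (1507 and 391 cells) Cdc45 was 60.6 against 27.6 CPM, Dbf4 68.4 against 36.4 CPM and Mcm10 31.3 against 19.3 CPM, all higher in G2/M-high cells. Mcm4 (86.1 against 109 CPM) and Mcm6 (154 against 188 CPM) were lower there, Mcm5 (73.5 against 54.9 CPM) and Mcm7 (94.0 against 72.9 CPM) were higher, and the ring as a whole had a log2 ratio of -0.08 (-0.11 to -0.05). In the 73 and 12 TAK-931 tumour-like cells the same 3 genes were higher in G2/M-high cells, with log2 ratios of 1.19 for Cdc45 (0.51 to 1.96), 0.62 for Dbf4 (0.03 to 1.26) and 1.08 for Mcm10 (0.12 to 2.23). In TAK-931 T-like cells (225 and 163 cells) all 10 genes were higher in G2/M-high cells, against 49.4% of 11256 genes, the ring by 0.65 (0.57 to 0.73), Cdc7 at 19.3 against 4.75 CPM and Mcm10 at 37.0 against 7.53 CPM. Dbf4 was higher in G2/M-high cells in each of the 7 gate and library pairs with at least 10 cells of both kinds, with intervals that left out 0. Mcm10 and Cdc45 were also higher in each, with intervals that held 0 in the vehicle myeloid and TAK-931 stromal gates. Outside the T gate the share of all genes was not taken. G2/M-high vehicle tumour-like cells had a median of 50587 UMIs and S-high ones 41229.

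The share of tumour-like cells called dividing was 63.0% (1898 of 3012) in the vehicle and 83.3% (85 of 102) in the TAK-931 library, a difference of 20.3 percentage points (Newcombe interval 11.7 to 26.6), and the share of G2/M-high cells was 50.03% and 71.6%. Tumour-like cells of the TAK-931 library also had more UMIs, a median of 71684 against 42406. Among cells of both libraries that lay between the quartiles of the TAK-931 tumour-like cells' UMIs (41895 and 93568), the difference was -1.61 points, and with the filter at over 500 genes it was 9.55 points. The difference in dividing share thus changed under these limits on UMIs per cell and genes. UMIs also differed between the calls, with medians of 50587 in G2/M-high and 34349 in non-dividing vehicle tumour-like cells. Depth and state therefore cannot be told apart here. In the other gates the shares in the vehicle and TAK-931 libraries were 64.3% and 58.3% for T-like, 62.5% and 54.5% for NK-like, 20.2% and 18.0% for myeloid-like and 17.7% and 16.7% for stromal-like cells, with intervals of every difference holding 0. The difference of T-like cells (-6.03 points) was 21.4 points with the filter at over 500 genes, that of myeloid-like cells (-2.28 points) was 2.94 points with cells thinned to 2000 UMIs, and that of stromal-like cells (-0.97 points) was 3.74 points between the quartiles of UMIs. For T-like cells that interval ran from -25.8 to 19.8 points, so a difference was not detectable with 14 vehicle cells.

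TAK-931 was set against vehicle in each gate to ask whether the mRNA of the target and of its substrates differed. In tumour-like cells none of the 10 genes lay past 2-fold, where 10.6% of 14741 genes were 2-fold higher and 7.5% 2-fold lower in the TAK-931 library. The sum of Mcm2 to Mcm7 was 498 CPM in vehicle and 553 CPM in TAK-931 cells, a log2 ratio of 0.15 (0.10 to 0.20), and 9 of 10 genes were above 0 with a median of 0.22 against -0.01 for all genes. The highest ratios were those of Cdc7 (6.77 and 11.04 CPM, log2 0.70, 0.36 to 1.04), Mcm2 (33.8 and 50.1 CPM, 0.57, 0.41 to 0.72), Cdc45 (39.8 and 56.2 CPM, 0.50, 0.35 to 0.64) and Mcm7 (71.8 and 94.97 CPM, 0.40, 0.29 to 0.52). The intervals of Dbf4 (49.4 and 54.7 CPM), Mcm3 (117 and 122 CPM), Mcm4 (79.97 and 86.7 CPM), Mcm5 (54.1 and 57.4 CPM) and Mcm6 (141 CPM in both) held 0. Between all tumour-like cells of like UMIs, within the quartiles given above, Mcm2 had a log2 ratio of 0.65, Cdc7 of 0.79 and Mcm4 of 0.24 (0.09 to 0.39), which then left out 0. There the intervals of Cdc45 (0.16), Dbf4 (-0.12) and Mcm10 (-0.16) held 0. Markers of other cells were also higher in TAK-931 than in vehicle tumour-like cells: the 8 T markers summed to 139 and 46.3 CPM, the monocyte/macrophage markers to 123 and 17.7 CPM and the cytotoxic check genes to 96.3 and 1.33 CPM, and their part in the difference was not tested.

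Within dividing tumour-like cells, 1898 vehicle and 85 TAK-931 cells, the difference was smaller for the ring, whose subunits lay on both sides of 0. It was 588 and 590 CPM (log2 0.01, -0.04 to 0.05), 5 of 10 genes were above 0, and the median was 0.01 against -0.04 for all genes. In S-high cells (391 and 12 cells) the ring was 615 and 717 CPM (log2 0.22, 0.08 to 0.36). In G2/M-high cells (1507 and 73 cells) it was 582 and 577 CPM (-0.01, -0.06 to 0.04). Over all dividing tumour-like cells, Mcm2 was 38.7 and 53.4 CPM (log2 0.46, 0.30 to 0.62), Cdc7 8.57 and 12.2 CPM (0.51, 0.16 to 0.85), Mcm7 90.3 and 103 CPM (0.20, 0.08 to 0.31) and Cdc45 54.8 and 62.3 CPM (0.19, 0.03 to 0.33). Mcm5 was lower, at 70.3 and 61.5 CPM (-0.19, -0.34 to -0.04), as was Mcm6, at 160 and 149 CPM (-0.10, -0.20 to -0.0043). Over all tumour-like cells, Mcm2 made up 9.07% (8.19 to 10.0) of the ring UMIs of the TAK-931 and 6.78% (6.59 to 6.97) of those of the vehicle library. With 1 library a group this is a difference between these libraries.

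In myeloid-like cells the direction was the opposite for the helicase. The ring was 145 CPM in vehicle and 86.6 CPM in TAK-931 cells, a log2 ratio of -0.75 (-0.89 to -0.60), and all 6 subunits were lower. Among the 10 genes the median was -0.59 against 0.01 for all genes, and 2 were at least 2-fold lower, Mcm6 (24.3 and 9.73 CPM, log2 -1.32, -1.68 to -0.94) and Mcm10 (6.47 and 3.22 CPM, -1.01, -1.70 to -0.24), where 8.35% of 13735 genes were 2-fold lower and 12.6% 2-fold higher. Dbf4 was higher, at 26.2 and 34.9 CPM (0.41, 0.09 to 0.76). The share of dividing cells was 20.2% and 18.0%. Within dividing cells the ring was 367 and 188 CPM (log2 -0.97, -1.15 to -0.77), and within non-dividing cells 49.7 and 46.8 CPM (-0.09, -0.49 to 0.34). In the cells between these calls (105 vehicle and 948 TAK-931 cells) it was 93.9 and 74.0 CPM (-0.34, -0.62 to -0.06). Of the dividing cells, the S-high ones were at 425 and 162 CPM (38 and 322 cells, log2 -1.39, -1.62 to -1.16), and G2/M-high cells at 278 and 257 CPM (12 and 65 cells, -0.11, -0.45 to 0.24).

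Other measures moved with the myeloid difference. Immunoglobulin transcripts of tumour origin were 1.39% of the tumour level in vehicle and 0.407% in TAK-931 myeloid-like cells, at which free tumour RNA would give 4.77% and 2.60% of their ring UMIs. Vehicle myeloid-like cells had a median of 10554 UMIs and TAK-931 ones 14637. Between the quartiles of the TAK-931 cells' UMIs the log2 ratio of the ring was -1.33, and without cells above 2 times the median UMIs of their gate and library it was -0.57. The part of depth, free RNA and cell makeup in the difference was not tested. Monocyte/macrophage-like cells alone had 143 CPM (129 to 157) in 231 vehicle and 84.8 CPM (81.8 to 87.9) in 2127 TAK-931 cells, and dendritic-like cells 177 CPM (126 to 240) in 16 and 190 CPM (156 to 228) in 28 cells.

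Stromal-like cells differed little as a whole, with ratios of opposite sign in dividing cells and in those between the calls. The ring was 108 CPM in vehicle and 98.7 CPM in TAK-931 cells (log2 -0.13, -0.33 to 0.06). Of the 10 genes 1 lay past 2-fold, Mcm10 at 5.03 and 2.20 CPM (-1.19, -2.33 to -0.06), against 7.77% of 13396 genes 2-fold lower and 12% 2-fold higher. It rested on 15 UMIs in each library, 7 of the vehicle ones from 1 cell, and turned to 0.21 between the quartiles of UMIs. Among 23 vehicle and 49 TAK-931 dividing cells the ring was 296 and 178 CPM (-0.73, -1.03 to -0.43) and Mcm3 66.8 and 30.5 CPM (-1.13, -1.82 to -0.44). In the 51 and 92 cells between the calls the ring was 87.3 and 137 CPM (0.65, 0.32 to 0.99). In the 56 and 152 non-dividing cells it was 51.7 and 39.1 CPM (-0.40, -0.84 to 0.04). Endothelial-like cells had 151 CPM (133 to 170) in 84 vehicle and 123 CPM (112 to 135) in 194 TAK-931 cells, and fibroblast-like cells 35.6 CPM (24.5 to 49.9) in 29 and 68.4 CPM (58.1 to 79.9) in 65 cells. Mural-like cells had 99.4 CPM (70.3 to 136) in 17 and 69.8 CPM (52.1 to 91.5) in 34 cells, with intervals that met. The endothelial-like level was lower and the fibroblast-like level higher in the TAK-931 library, with intervals that met for the first and not for the second.

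For T-like cells only 14 vehicle cells were at hand. The ring was 713 and 673 CPM (log2 -0.08, -0.30 to 0.14), and 1 of 10 genes lay past 2-fold, Cdc7 at 29.6 and 12.3 CPM from 7 and 154 UMIs (log2 -1.27, -2.34 to 0.07), against 11.8% of 11850 genes 2-fold lower and 13.9% 2-fold higher. With the filter at over 500 genes the ratio of the ring was 0.34, so the direction depended on the filter. In NK-like cells the 8 vehicle cells gave 55 ring UMIs (526 CPM, 396 to 684) and the 77 TAK-931 cells 662 (610 CPM, 564 to 658).

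**Figure D5:**
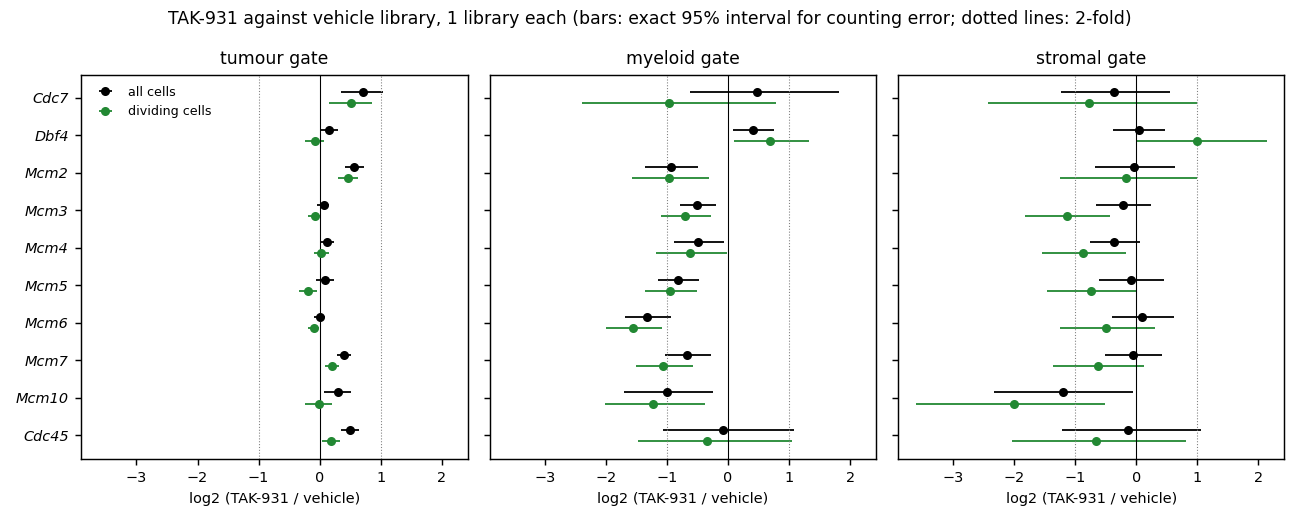
log2 ratio of the TAK-931 to the vehicle library for each of the 10 genes in tumour-like, myeloid-like and stromal-like cells, over all cells (black) and dividing cells alone (green); bars are exact 95% intervals for counting error and dotted lines mark 2-fold. In the tumour gate the points lie between -0.19 and 0.70, and in the myeloid gate the 6 Mcm2 to Mcm7 points lie below 0 in both sets.

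The other genes of origin licensing and firing were taken from a list of 26: the origin recognition complex, the loaders Cdc6 and Cdt1 with the inhibitor Gmnn, the GINS subunits, the firing factors Ticrr, Mtbp, Topbp1 and Recql4, and helpers of the fork such as Timeless, Tipin and Clspn. In vehicle tumour-like cells 19 of 26 were at least 2-fold higher in dividing cells, against 9.96% of all genes, with a median log2 ratio of 1.51. Clspn, the mediator that activates the checkpoint kinase CHK1, was 66.8 against 1.20 CPM and Ticrr, which brings CDC45 to the ring, 8.20 against 0.427 CPM. Orc4, of the origin recognition complex, was 31.5 and 31.0 CPM (log2 0.02, -0.14 to 0.18). The count was 19 of 26 in TAK-931 T-like cells, against 15.5% of all genes, with Gins2 at 35.8 against 2.18 CPM, and 14 of 25 in TAK-931 myeloid-like cells, against 4.82%. Of the 19 in T-like cells, Recql4 had 53 and 0 UMIs and was 1.76-fold higher against a floor of 3 counts. Between TAK-931 and vehicle tumour-like cells 2 of 26 were past 2-fold, both higher, Ticrr (5.95 and 14.2 CPM, log2 1.26, 0.95 to 1.55) and Orc1 (5.48 and 11.3 CPM, 1.05, 0.70 to 1.38), and the median was 0.20. Of all genes 10.6% were 2-fold higher and 7.5% 2-fold lower there (5.64% and 5.75% of those with at least 50 UMIs). Within dividing tumour-like cells Ticrr was at 0.96 and Orc1 at 0.89 on the log2 scale. The median there was 0.01 for the 26 and -0.04 for all genes. In myeloid-like cells 4 were at least 2-fold lower and 2 higher with a median of -0.13, against 8.35% of all genes lower and 12.6% higher. Donson, which helps GINS onto the ring, was 15.9 and 7.04 CPM (-1.17, -1.62 to -0.70).

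The likeness of the genes was described over 21 sums of cells by gate, library and state (dividing, between or non-dividing) of at least 20 cells each, which share libraries and depth. Pearson correlations of log2(CPM + 1) with the mean of the other 9 genes were 0.99 for Mcm7, 0.96 for Mcm2, 0.94 for Mcm3, 0.93 for Mcm4, 0.91 for Mcm5 and Cdc45, 0.84 for Mcm10, 0.79 for Mcm6, 0.67 for Cdc7 and 0.57 for Dbf4. The kinase genes had the lowest values. For Cdc7 several of the sums hold few UMIs, 0 in non-dividing vehicle myeloid-like and 4 in non-dividing TAK-931 T-like cells, and the part of counting error in its value was not tested. Among 13755 genes, those outside the 10 nearest to their mean included Usp1 (0.98), in the S list used to call dividing cells, Dnmt1 (0.96), the maintenance DNA methyltransferase, the replication histone Hist1h2ae (0.95) and Pole (0.95), the catalytic subunit of the leading strand polymerase.

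Shares of cells with a UMI separated the same gates when every cell was thinned to 4000 UMIs. Any of Mcm2 to Mcm7 was seen in 74.3% of vehicle (72.7 to 75.8) and 77.5% of TAK-931 tumour-like cells (68.1 to 85.1), and in 69.5% of TAK-931 T-like cells (65.9 to 73.0). It was seen in 29.1% of vehicle (23.6 to 35.2) and 20.5% of TAK-931 myeloid-like cells (18.8 to 22.2), and in 27.7% (20.2 to 36.2) and 19.8% (15.4 to 24.8) of stromal-like cells. Without thinning these shares were 98.9% and 98.0% in tumour-like, 87.7% in T-like, 44.1% and 47.2% in myeloid-like and 61.5% and 54.9% in stromal-like cells. At least 3 of the 6 subunits were seen in 39.9% of dividing (35.0 to 45.01) and 2.63% of non-dividing (0.320 to 9.19) TAK-931 T-like cells, and in 5.94% (3.80 to 8.78) of dividing TAK-931 myeloid-like cells, against 77.6%, 9.21% and 22.2% without thinning. Mcm10 was seen in 0 of 339 non-dividing vehicle tumour-like cells after thinning, where the exact interval reached 1.08%, and in 2.36% of them without it.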

How the data were processed

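Dissociated J558 allografts were run on the 10x Genomics 3′ v3.1 chemistry, 1 library a group. The deposited matrices hold whole-number UMI counts per gene and barcode, made by the authors with Cell Ranger 6.0.0. The submitters' processing notes name mm10, the methods name hg38 for the study's single-cell reads, and the features are mouse genes. Matrices were read with pandas 2.3.3 and scipy 1.17.1. Cells passing both filters (over 2000 genes, mitochondrial share under 15%) were gated by the highest of 8 marker scores (mean log count of 6 to 10 genes at 10000 UMIs a cell, at least 0.3), and cells in which another lineage came near were left out as mixed. Doublets were not called; an alternative left out cells above 2 times the median UMIs. A correction for free RNA was only an alternative.

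Counts were summed per gate and library and given as CPM with exact Poisson intervals, log2 ratios with exact conditional binomial intervals (0.5 UMI added where a count was 0), shares with Clopper-Pearson and differences of shares with Newcombe intervals, all at 95% and for counting error only. A gene needed 10 UMIs over the 2 sums to be counted and was called past 2-fold, so percentages of all genes past 2-fold include poorly counted genes. Of genes with at least 50 UMIs, 6.95% in vehicle tumour-like and 12% in TAK-931 T-like cells were 2-fold higher in dividing cells. The share was 3.25% and 2.76% in vehicle and TAK-931 myeloid-like cells, and 2.58% and 3.2% in stromal-like cells. No test was possible with 1 library a group. The genes named are all 10 members, a list of 26 origin licensing and firing genes, and the 5 others with the highest Pearson correlation to the mean of the members over sums of at least 20 cells, 1 of which is not reported here. A check of the T gate by genes outside it is likewise not reported. The members and lists were chosen with earlier results of these data known, and the head-to-head neighbours, the promoter words and the T-like subsets after the data were seen. Results were recomputed under 15 other settings, 3 of them added after the data were seen. The calculation was tested on simulated data.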

Additional observations from a re-analysis of the deposited data

Results flagged for a closer look

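For 3 genes the ratio of TAK-931 to vehicle lay on opposite sides of 0 in 2 gates, with intervals that both left out 0. The difference between gates was not tested, since each group is 1 library. Mcm2 had a log2 ratio of 0.57 in tumour-like and -0.94 in myeloid-like cells. Mcm7 had 0.40 and -0.67. Mcm10 had 0.30 in tumour-like, -1.01 in myeloid-like and -1.19 in stromal-like cells, and between the quartiles of TAK-931 UMIs its tumour value was -0.16 and its stromal value 0.21.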

How the results depend on the processing

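No paired analysis was possible because each group is 1 library and the groups share only the number 1. Of 144 recomputed values of the Mcm2 to Mcm7 sum and the dividing shares, 114 stayed within their interval (7 with the other sign), 29 moved outside it (3 with the other sign) and 1, whose interval had left out 0, turned. Of 1211 for single genes, shares of cells and background percentages, 1045 stayed (40 with the other sign), 164 moved (2 with the other sign) and 2 such values turned. The causes were not tested. With the mean of each cell's CPM, the log2 ratio of TAK-931 to vehicle for the sum was 0.23 in the tumour, -0.57 in the myeloid and -0.37 in the T gate, and that of dividing to non-dividing cells was 1.40 (vehicle tumour), 2.13 (TAK-931 T), 2.41 (vehicle myeloid), 1.61 (TAK-931 myeloid) and 2.52 (TAK-931 stromal). Cells thinned to 2000 UMIs gave 1.06, 1.96, 2.41, 1.36 and 1.64 for the same contrasts and 1.79 for vehicle stromal cells, and differences in dividing share of 11.5 points (tumour) and 2.94 points (myeloid). With over 500 genes the dividing share differed by 9.55 points (tumour) and 21.4 points (T), and the T ratio of the sum was 0.34. Between the quartiles of TAK-931 UMIs, chosen after the data were seen, the tumour dividing share turned to -1.61 points, Mcm10 turned to -0.16 (tumour) and 0.21 (stromal), and the myeloid sum was -1.33. Without cells above 2 times the median UMIs, also chosen later, the sum was -0.57 (myeloid) and -0.50 (T) between libraries, and 1.70 (TAK-931 myeloid) and 2.97 (TAK-931 stromal) between states. Calling dividing cells at 6 UMIs gave 2.53 (TAK-931 myeloid), 3.08 (vehicle stromal) and 2.96 (TAK-931 stromal). Another random draw gave 2.83 (TAK-931 stromal), and scaling by the median ratio 1.23 (vehicle tumour). Depth limits the vehicle T and NK gates (14 and 8 cells) and Cdc7, which had at most 18 UMIs in each of the vehicle T, NK, myeloid and stromal gates.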
